A study of Mus musculus with 17 samples.

Results

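The cytosolic ribosomal protein genes encode the protein subunits of the ribosome that translates nuclear-encoded messages. They were taken as the rows whose symbol is Rpl or Rps followed by a number, with at most 1 further letter from a, l, x and y and 1 further digit, plus Rpsa, Rplp0, Rplp1 and Rplp2, with rows marked -ps left out. Of 53278 gene symbols in the table, 89 matched, and 85 of these reached 1 TPM (a length-corrected share of the library's transcripts) in at least 2 of the 17 libraries, among 15066 genes that did so. The 4 that did not were Rpl10l, Rpl39l, Rpl3l and Rps12l1, and the highest of them, Rpl3l, reached 0.294 TPM. The members nearest the limit lay well inside it: the second-highest library stood at 11.9 TPM for Rpl13a, 12.0 for Rpl24 and 12.2 for Rpl6l. By symbol, 50 of the 85 belong to the large subunit and 35 to the small subunit. The annotation gives 80 as protein coding and 5 (Rps4l, Rpl32l, Rpl6l, Rps3a2 and Rps3a3) as processed pseudogenes, which are reverse-transcribed copies of a message.

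Each ribosome needs one copy of almost every subunit, and most of these genes start transcription at a C followed by a run of pyrimidines, the 5′ terminal oligopyrimidine motif, through which mTOR signalling controls how much of the message is translated. In the small intestine, dividing crypt cells are known for high ribosome production, which makes these transcripts a common measure of growth. Milk of a dam carries immunoglobulin A (IgA) to the gut of her pups, and weaning ends that supply.

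Bulk RNA-seq had been run on small-intestinal epithelial cells from mice, sorted as EpCAM+ CD45- Ter119-. All pups shared the C57BL/6 strain label and the genotype Igha -/+, carried a specific pathogen free status and were cohoused where possible. They differed in the dam that nursed them, a C57BL/6 (B6) dam or an IgA -/- dam (called IgA-null here), and in age, day 14, 24 or 42 of life. The groups were thus B6 dam at day 14 (3 libraries), IgA-null dam at day 14 (3), B6 dam at day 24 (2), IgA-null dam at day 24 (3), B6 dam at day 42 (3) and IgA-null dam at day 42 (3). Litters, dams and sexes of the pups are not given in the labels, so pups of a group may share a litter, and every p-value speaks only of sample-to-sample spread, part of which may be technical. The descriptions carry a date that is the same for both dams at day 42 and for the IgA-null dam at days 24 and 42. In the other comparisons the date differs between the groups and cannot be told apart from dam or age. The descriptions also begin with a letter, F for every library of the IgA-null dam and M for every library of the B6 dam. Its meaning is not given, and it cannot be told apart from dam at any age.

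The sorted cells carried the epithelial label in their transcripts. Epcam stood between 245 and 552 scaled TPM in every library, and the leukocyte marker Ptprc stayed at or below 0.737. The leukocyte markers together summed to between 1.51 and 8.22 scaled TPM at day 14, 10.2 and 54.8 at day 24 and 47.9 and 116 at day 42. Only 2 of the 6 listed leukocyte genes passed the filter. In replicate 1 of the IgA-null dam at day 42, 2 of the 6 were above 0. Ptprc made 0.737 of the 47.9 there, so nearly all of that sum came from the other gene. Erythroid markers summed to 67.2 in replicate 2 of the IgA-null dam at day 24 and to at most 3.23 in the other libraries. The part of either list in the results was not tested. Reads recovered from the TPM values and exon lengths came to between 8477226 and 18305346 per library, of which between 136152 and 478621 fell on the 85 genes. Replicate 1 of the IgA-null dam at day 24 stood apart from its group in these genes, and the 2 libraries of the B6 dam at day 24 stood far apart from each other. Several results that rest on them are therefore given with and without them. In bulk samples, fewer cells of a type and less RNA per cell cannot be told apart.

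The summed deposited TPM of the ribosomal protein messages differed between libraries. It came to 11936, 10865 and 13141 in the 3 libraries of the B6 dam at day 14 and to 15451, 14172 and 17884 in those of the IgA-null dam at day 14. At day 24 the sums were 12992 and 5171 with the B6 dam and 6725, 5224 and 4249.7 with the IgA-null dam. At day 42 they were 6638, 10025 and 11733 with the B6 dam and 11099, 10703 and 9496 with the IgA-null dam. The deposited sums of the IgA-null dam were lower at day 24 than at day 14 and day 42 with no overlap, whereas the B6 dam's libraries overlapped between ages.

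TPM divides up a fixed total, so a library dominated by a few very abundant RNAs leaves less for the rest. All libraries were therefore divided by a median-of-ratios size factor, the usual correction for such differences, which ran from 0.477 to 1.83. The result is called scaled TPM. After scaling, the 85 genes summed to 10536, 9008 and 11147 scaled TPM (B6 dam) and 9443, 10119.9 and 9792 (IgA-null dam) at day 14. The day-24 sums were 12042 and 7708 with the B6 dam and 9376, 9669 and 8917 with the IgA-null dam, and the day-42 sums were 8629, 9676 and 9442 with the B6 dam and 10144, 10232 and 9698 with the IgA-null dam. The lowest and the highest of all 17 scaled sums came from the same group, the B6 dam at day 24.

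**Figure D1:**
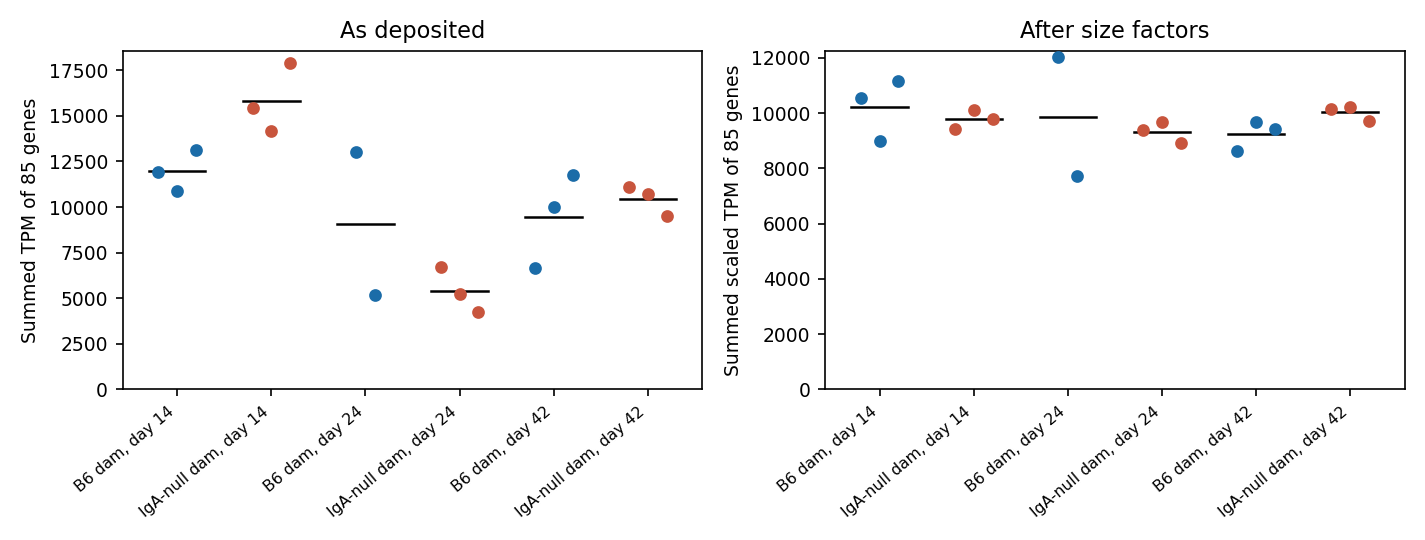
Summed level of the 85 genes in each library, in TPM as deposited (left) and in scaled TPM (right). Points are libraries, blue for the B6 dam and red for the IgA-null dam, and lines are group means. As deposited, the 3 IgA-null libraries at day 24 sit between 4249.7 and 6725 and those at day 14 between 14172 and 17884. After scaling, the 2 libraries of the B6 dam at day 24 mark both ends of the range, 7708 and 12042.

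How far these genes appeared to move with age depended on the scaling. On deposited TPM, 83 of the 85 passed limma's test (Benjamini-Hochberg adjusted p under 0.05) as lower at day 24 than at day 14 with the IgA-null dam, where 82.9% of all tested genes were lower too. On the same values 70 of 85 were higher at day 42 than at day 24 with this dam, where 48.5% of all genes were higher. The median log2 fold change over the 85 was −1.51 and 1.05 in these comparisons, beside −1.02 and 0.53 over all tested genes. After scaling, the same medians were −0.04 and 0.21, beside −0.02 and 0.01 over all genes, and 1 and 0 of the 85 passed. The non-coding RNA Gm23935 and the mitochondrial genes left between 10.3% and 30.9% of the deposited TPM to all other genes. With the IgA-null dam the 85 genes took 5.30%, 5.74% and 5.79% of that remainder at day 14. They took 4.43%, 4.40% and 4.14% at day 24 and 5.96%, 5.97% and 5.64% at day 42. Day 24 thus lay below both other ages without overlap. With the B6 dam the ages overlapped.

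Across all 7 scaled comparisons, at most 1 ribosomal protein gene passed in any. The count was 0 of 85 between dams at day 14, where 2.93% of all tested genes passed. Between dams at day 24 and at day 42 it was also 0, and so was the share of all genes (0%). From day 14 to day 24 the count was 1 with the B6 dam (Rps27l, higher; 13.8% of all genes) and 1 with the IgA-null dam (Rpl14, lower; 16.6% of all genes). From day 24 to day 42 it was 0 with the B6 dam (0.0265% of all genes) and 0 with the IgA-null dam (2.58% of all genes). In a joint test of whether the dam difference varied with age, 0 of 85 passed, where 0.139% of all genes passed, and 6 of 85 had an unadjusted p under 0.05 (10.2% of all genes).

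The precision allows a bound on most of these differences. The median standard error of a member's log2 fold change was 0.17 between dams at day 14. The 95% confidence interval lay within a 2-fold change in either direction for 75 of 85 genes between dams at day 14, 82 at day 24 and 83 at day 42. With age it did so for 82 genes from day 14 to 24 and 82 from day 24 to 42 with the B6 dam, and for 80 and 78 with the IgA-null dam. A change smaller than 1.5-fold is less well bounded, since the interval lay within it for 41 of 85 genes between dams at day 14. Without adjustment, 18 of 85 had p under 0.05 between dams at day 14 (19.3% of all genes), 2 at day 24 (10.1%) and 0 at day 42 (1.61%). From day 14 to 24 the unadjusted count was 4 with the B6 dam (27.6%). From day 24 to 42 the unadjusted counts were 2 for the B6 dam (7.03%) and 21 for its IgA-null counterpart (23%).

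**Figure D2:**
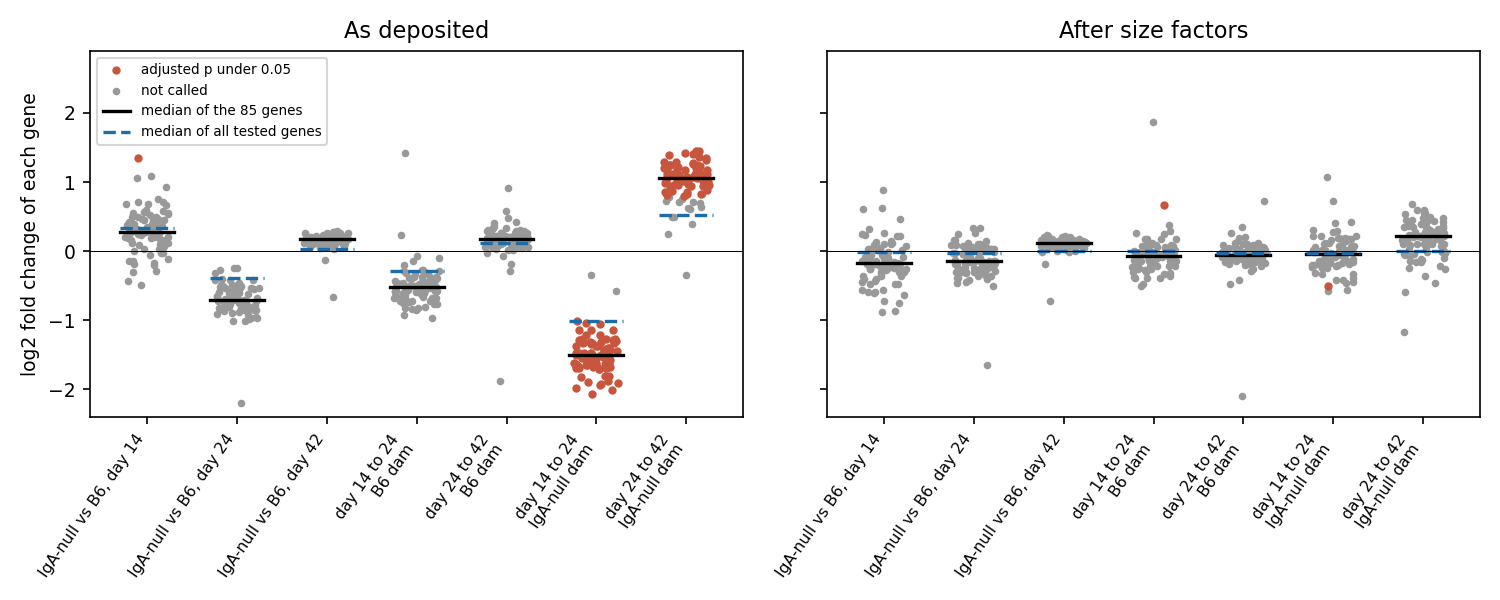
Log2 fold change of each of the 85 genes in the 7 comparisons, on deposited TPM (left) and after size factors (right). Points are genes, red where limma's adjusted p is under 0.05. Black bars are medians of the 85 genes and dashed blue bars medians of all tested genes. The red points number 83 and 70 in 2 age comparisons with the IgA-null dam on the left, and 1 in each of 2 comparisons on the right.

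The genes differed far more from one another than any of them did between groups. TPM is already per unit of gene-model length, and on the scaled TPM scale the highest means over 17 libraries were those of Rplp1 at 1041, Rplp0 at 491 and Rpl8 at 441. Rplp0, Rplp1 and Rplp2 (226) form the stalk that recruits elongation factors, and Rpl8 (uL2) lies near the peptidyl transferase centre. The lowest means were Rpl13a at 7.86, Rpl6l at 7.93 and Rpl24 at 8.11. Across the 80 coding genes, mean scaled TPM had a Spearman correlation of −0.49 with the summed exon length that the TPM divides by, and both share that length. The summed exon length was between 1.0 and 9.80 times the message length (median 2.37), so the order of levels depends on the gene model. Taken per message length, the mean of Rpl22 was 700 in place of 114. The message was 1 transcript per gene, the shortest where the annotation ranked several equally. For Rpl22 it had 474 bases, against 2911 in the summed exons, so such values depend on that choice. Neighbours in the order of levels often overlapped: Rplp0 ran from 349 to 605 over the libraries and Rpl8 from 331 to 598, whereas Rplp1 ran from 781 to 1296 and overlapped neither. Over the 17 libraries the coefficient of variation of a coding gene had a median of 15.6% and a range of 9.55% to 36.7%. The highest library exceeded the lowest by more than 2-fold in 30 of 80 and by more than 3-fold in 0.

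Members with duties beyond the ribosome gave no called difference in any comparison. Rpl5 and Rpl11, which with the 5S RNA bind Mdm2, ran from 65.4 to 113 and from 37.9 to 60.8 scaled TPM over the 17 libraries. Rps6, the substrate of S6 kinase, ran from 112 to 183, and Rps27a, which is made as a fusion with ubiquitin, from 31.5 to 52.6. Rps3, also a DNA repair protein, ran from 69.3 to 121, Rpl10 from 53.8 to 89.1 and Rpl38, which is known for a role in translating Hox messages, from 144 to 213. Rpsa, the laminin receptor precursor, ran from 138 to 309, and its highest value came from replicate 1 of the day-24 IgA-null group.

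Rps27l had the only called rise: it is a paralog of the small-subunit gene Rps27 and a p53 target. Rps27 lies on chromosome 3 (GRCm38 chr3:90212522-90213651, minus strand) and Rps27l on chromosome 9 (chr9:66946086-66949516, plus strand). Their coding sequences (GENCODE M21) are shown to set the paralogs side by side. They share 194 of 255 bases (76.1%), and the 61 that differ are in capitals.

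Rps27: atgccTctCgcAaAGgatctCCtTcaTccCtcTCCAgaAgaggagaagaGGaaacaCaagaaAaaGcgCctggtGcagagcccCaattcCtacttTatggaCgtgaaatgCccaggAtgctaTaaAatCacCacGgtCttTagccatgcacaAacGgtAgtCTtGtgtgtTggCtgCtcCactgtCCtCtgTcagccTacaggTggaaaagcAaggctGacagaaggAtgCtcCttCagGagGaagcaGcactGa

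Rps27l: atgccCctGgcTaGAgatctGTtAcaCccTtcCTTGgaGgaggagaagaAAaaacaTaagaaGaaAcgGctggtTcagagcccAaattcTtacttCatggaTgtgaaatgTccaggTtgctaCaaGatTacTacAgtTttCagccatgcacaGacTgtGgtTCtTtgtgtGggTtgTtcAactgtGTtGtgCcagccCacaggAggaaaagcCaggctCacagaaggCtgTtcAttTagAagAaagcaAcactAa

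Rps27l stood at 22.7, 20.7 and 25.8 scaled TPM with the B6 dam at day 14 and at 38.0 and 36.5 at day 24. The groups did not overlap, and the log2 fold change was 0.67 ± 0.20 (SE; 95% interval 0.23 to 1.11; limma adjusted p = 0.044). At day 42 it was at 40.8, 32.5 and 35.0, near the day-24 values. With the IgA-null dam Rps27l stood at 23.9, 22.6 and 20.0 at day 14, at 20.5, 38.3 and 34.4 at day 24 and at 38.4, 37.5 and 33.2 at day 42. Replicate 1 at day 24 was at the day-14 level and the other two were at the day-42 level, and the change from day 14 to 24 did not pass (0.42 ± 0.18, adjusted p = 0.12). Without that 1 library the change was 0.69 with an adjusted p of 0.0039. Every library at day 42 was above every library at day 14 with either dam.

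Rps27 showed no such step from day 14 to 24, although nearly all 50-base stretches of its message recur in other annotated genes, as given below. It stood at 64.6, 53.2 and 66.0 scaled TPM with the B6 dam at day 14, at 78.7 and 52.4 at day 24 and at 66.5, 65.6 and 63.3 at day 42, so its ages overlapped (0.07 ± 0.19 from day 14 to 24, adjusted p = 0.84). With the IgA-null dam it stood at 49.7, 50.8 and 45.0, then 36.6, 58.6 and 48.5, then 68.6, 73.8 and 65.6. Days 24 and 42 did not overlap there, but the difference did not pass (0.55 ± 0.17, adjusted p = 0.085). With this dam every day-42 library of Rps27 was also above every day-14 library. The Rps27l call was lost on deposited TPM, where its value was 0.23 (adjusted p = 0.55). It was also lost with any library of the groups compared, and with some of the others, left out (adjusted p between 0.052 and 0.15), at values between 0.60 and 0.75.

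Rpl14, a large-subunit gene at chr9:120571444-120574654 (plus strand), was the only member called with the IgA-null dam. It stood at 143, 152 and 146 scaled TPM at day 14 and at 93.8, 118 and 101 at day 24, with no overlap, and fell by 0.50 ± 0.16 on the log2 scale (95% interval −0.83 to −0.16; adjusted p = 0.043). At day 42 it was at 125, 121 and 112, within or just above the day-24 range. With the B6 dam it stood at 136, 119 and 146, then 146 and 90.1, then 106, 117 and 117, and the ages overlapped from day 14 to 24. The Rpl14 call too was lost with any library of the groups compared, and with some of the others, left out (adjusted p between 0.051 and 0.12).

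**Figure D3:**
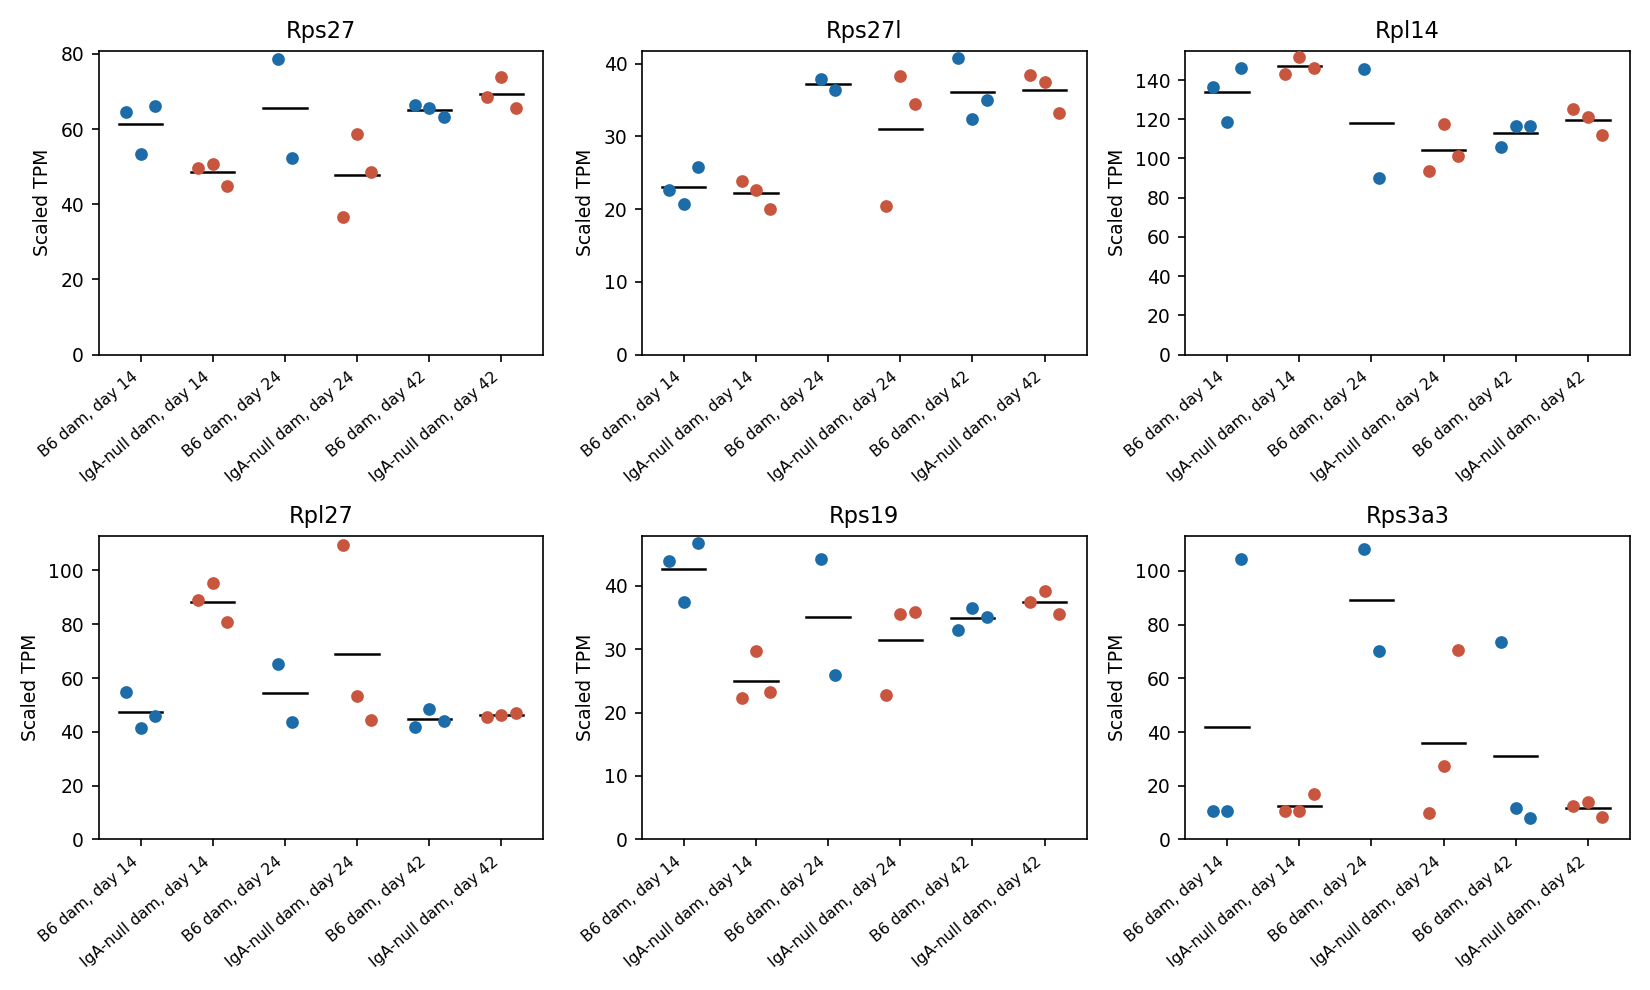
Scaled TPM of 6 genes in each library, by group. Points are libraries, blue for the B6 dam and red for the IgA-null dam, and lines are group means. Rps27l is between 20.0 and 25.8 in all libraries of day 14, Rpl27 is above 80 in the 3 IgA-null libraries of day 14 and in 1 of day 24, and Rps3a3 falls into separate low and high libraries within groups.

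At day 14 the genes moved unevenly between dams. The libraries of the dams did not overlap for 36 of 85 genes (31.1% of all genes), 7 higher with the IgA-null dam (16% of all genes did so) and 29 lower (15.1%). The 7 higher were Rpl27, Rpl22, Rpl23a, Rps23, Rpl22l1, Rpl34 and Rpl19, with log2 fold changes from 0.22 to 0.89. The 29 lower ran from −0.88 to −0.19. The median over all 85 was −0.17, beside −0.01 over all tested genes, and 25 of 85 were positive. The direction depended on the scaling: on deposited TPM the median was 0.28, beside 0.33 over all genes, and 71 of 85 were positive. With size factors from the 85 genes alone it was −0.03, and 37 were positive.

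The genes with the smallest p at day 14 were Rpl28, Rps19 and Rps12, none of which passed. Rpl28, a large-subunit gene particular to eukaryotes, stood at 71.6, 69.0 and 75.5 scaled TPM with the B6 dam and at 45.6, 46.0 and 53.3 with the IgA-null dam (log2 fold change −0.57 ± 0.15, adjusted p = 0.052). Rps19, the gene mutated most often in Diamond-Blackfan anaemia, stood at 43.8, 37.5 and 46.7 against 22.3, 29.6 and 23.2 (−0.75 ± 0.20, adjusted p = 0.056). Rps12 stood at 41.5, 43.4 and 42.7 against 23.5, 21.0 and 33.0 (−0.72 ± 0.21, adjusted p = 0.072). In all 3 the IgA-null libraries lay below every B6 library. By day 42 the dams overlapped in Rps19, which was at 33.0, 36.5 and 35.1 with the B6 dam and at 37.4, 39.1 and 35.6 with the IgA-null dam.

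In the other direction, Rpl27 and Rpl22 were singled out after their values were seen. Rpl27 (chr11:101442298-101445529, plus strand) stood at 54.9, 41.4 and 45.8 scaled TPM with the B6 dam and at 88.9, 95.3 and 80.9 with the IgA-null dam at day 14 (log2 fold change 0.89 ± 0.25, adjusted p = 0.073). Rpl22 (chr4:152325742-152334071, plus strand), which binds RNA outside the ribosome as well, stood at 105, 84.4 and 114 against 148, 162 and 155 (0.62 ± 0.26, adjusted p = 0.21). Its paralog Rpl22l1, with 69.4% identity over the aligned coding bases, stood at 11.6, 11.6 and 11.8 against 14.5 in the middle IgA-null library and 15.3 in the highest (0.31, adjusted p = 0.34). Each of the 3 had no overlap between dams at day 14.

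Whether these day-14 differences passed depended on which libraries entered the fit and on the method. All 17 libraries share an estimate of spread. Replicate 1 of the IgA-null dam at day 24 differed from its group: Rpl27 was at 109.5 there and at 53.3 and 44.3 in the other two, Rpl22 at 211 against 99.8 and 90.8, and Rps19 at 22.7 against 35.6 and 35.9. With that library left out, 9 of 85 passed at day 14, where 7.26% of all genes did: Rpl22, Rpl23a and Rpl27 were higher with the IgA-null dam, and Rpl28, Rpl36, Rps12, Rps18, Rps19 and Rps4x lower. With replicate 1 of the B6 dam at day 24 left out, 7 passed, all lower (2.06% of all genes were called lower), and likewise 7 without replicate 2 of that group (2% of all genes). Fitting only the groups compared gave 6 of 85, Rpl23a and Rpl27 higher and Rpl28, Rps18, Rps19 and Rps4x lower (4.76% of all genes). With all 17 libraries, weighting them by their spread gave 34 of 85, 5 higher (13.4% of all genes) and 29 lower (15.8%). Limma-voom on recovered reads called Rpl28 and Rps19 lower (1.27% of all genes were), and so did the test of only genes at 5 TPM or more in 2 libraries.

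The pattern of replicate 1 at day 24 resembled that of the IgA-null dam at day 14. For the 80 coding genes, the log2 fold change between dams at day 14 and the log2 difference of this replicate from the mean of replicates 2 and 3 had a Spearman correlation of 0.75 and a Pearson correlation of 0.74. The 2 quantities share no library. Over 3282 other tested genes at the same levels the correlations were 0.42 and 0.37, and over all 15066 tested genes 0.31 and 0.29. Genes are not independent replicates, and these values are a description of the libraries.

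**Figure D4:**
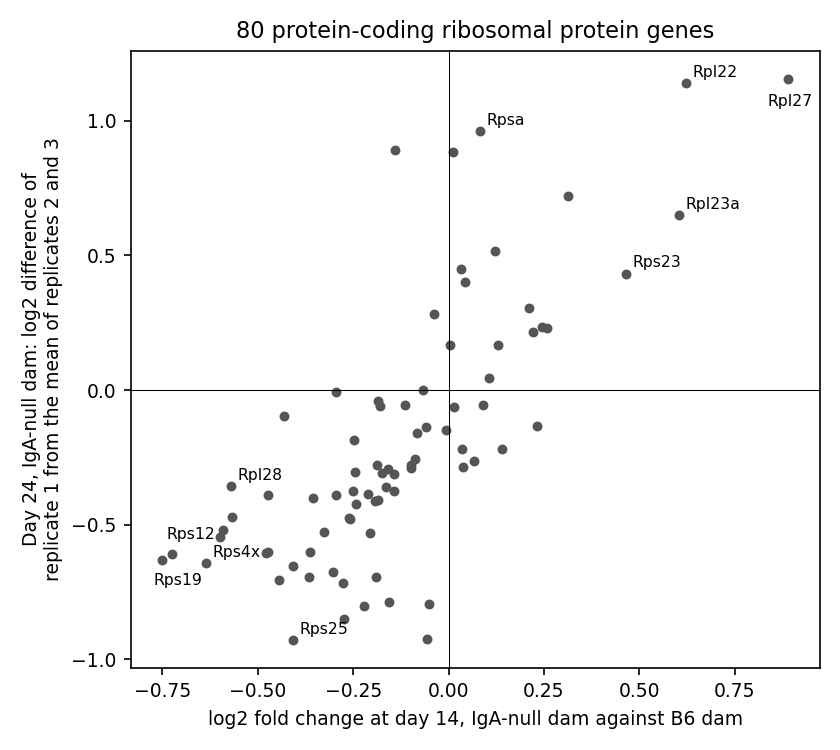
Each point is 1 of the 80 protein-coding genes. The x axis is the log2 fold change between dams at day 14 (IgA-null against B6) and the y axis the log2 difference, among libraries of the IgA-null dam at day 24, of replicate 1 from the mean of replicates 2 and 3. Rpl27, Rpl22, Rpl23a and Rps23 are at the upper right, and Rps19, Rps12 and Rps4x at the lower left. The Spearman correlation is 0.75 over 80 genes.

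Read against the median ribosomal protein gene of each library, the same 4 libraries stood apart. The main axis of variation among the 80 coding genes held 57.3% of their variance and the second axis 16.0%. Scores on the main axis were between 1.74 and 1.98 in the 3 IgA-null libraries of day 14 and 3.45 in replicate 1 of day 24, and between −1.13 and −0.27 in the other 13. Rpl27, Rpl22, Rpl23a, Rps23, Rpl22l1, Rpsa and Rplp2 weighed most on the positive side, and Rps25, Rps12, Rps27l and Rps29 on the negative side. Replicate 1 went further than the day-14 libraries for some of these: Rplp2 was at 389 scaled TPM there, at 215 and 205 in its group and at no more than 256 in the other libraries. For Rpsa it was 309, against 171 and 146 in its group.

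**Figure D5:**
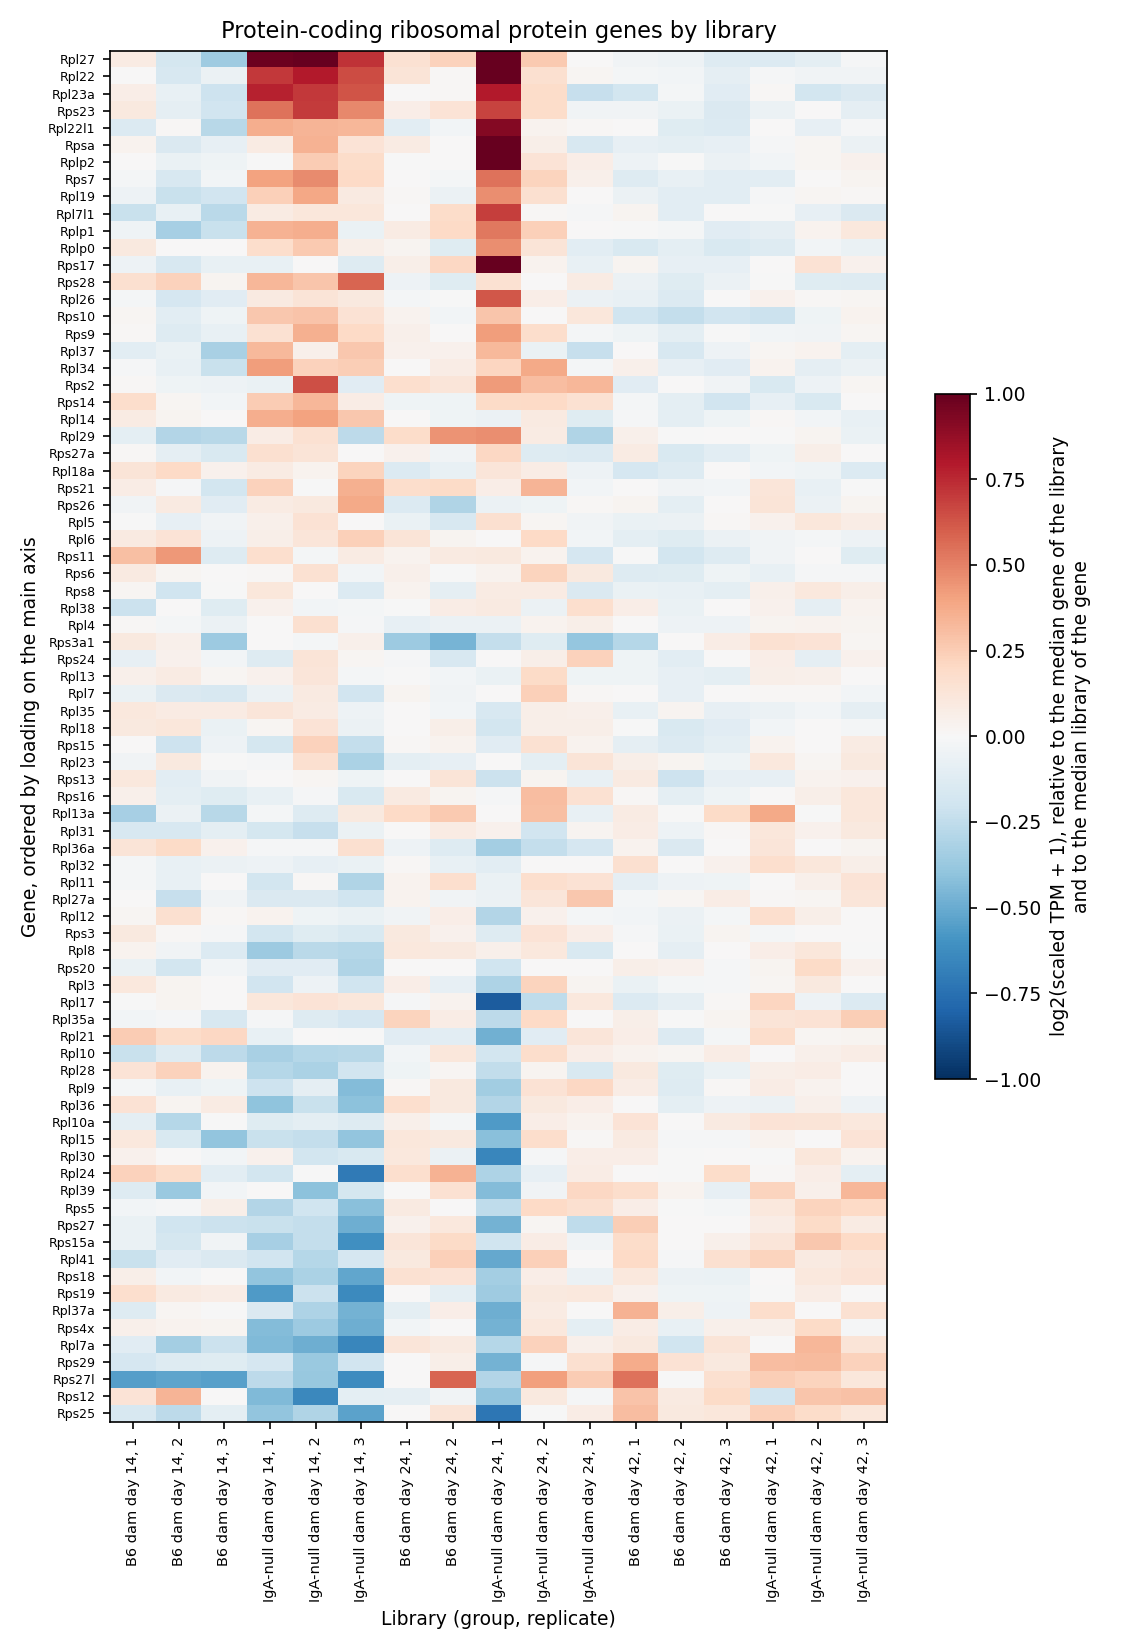
Each cell is log2(scaled TPM + 1) of a protein-coding gene in a library, relative to the median gene of that library and to the gene's median library. Rows are the 80 genes, ordered by their loading on the main axis, and columns the 17 libraries. The 3 IgA-null libraries of day 14 and replicate 1 of the IgA-null dam at day 24 are red at the top and blue at the bottom, and these 4 hold axis scores of 1.74 or more.

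Other measures moved with dam at day 14, and their part in the result was not tested. All 7 goblet cell markers and all 8 enteroendocrine markers passed as higher with the IgA-null dam at day 14, where 1.79% of all genes did. Their summed scaled TPM ran from 424 to 687 against 1479 to 2326 (goblet) and from 144 to 179 against 766 to 938 (enteroendocrine). All 5 tuft and all 7 Paneth markers were positive, with 2 called in each list. All 6 neonatal enterocyte markers were negative (2 called lower, median −1.30), and so were all 5 stem markers (0 called). The small nuclear RNA Rn7sk stood between 4635 and 6602 scaled TPM with the B6 dam and between 18429 and 19868 with the IgA-null dam. Within the IgA-null dam at day 24, replicate 1 lay inside the range of its group in the goblet and enteroendocrine lists: its enteroendocrine sum was 389 in a range of 296 to 390.4, and its goblet sum 2226 in a range of 1563 to 3271. It stood outside the range of the other two in other lists: its adult enterocyte markers summed to 4280.3 against 2442 and 2692, epithelial markers to 2643 against 2029.9 and 1641, and cycling markers to 66.3 against 95.8 and 85.4. Replicate 1 also carries the same date as replicates 2 and 3, and its recovered reads, 12046833, lie between theirs (11683681 and 14129987).

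None of the gene features computed here tracked the day-14 pattern closely. Across the 80 coding genes, the Spearman correlation of the day-14 difference was −0.05 with the GC content of the message, −0.04 with its length, −0.16 with summed exon length, −0.07 with the number of small nucleolar RNAs inside the gene and −0.09 with the share of 50-base stretches found in other genes. The correlation with mean level was 0.30. All these share the same libraries and annotation.

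The promoters were searched for the pyrimidine start, because it is the feature these genes are known for. RefSeq start windows (GRCm38.p6) matched 61 of the 85. A C followed by at least 4 bases that are each C or T, beginning within 5 bases of the RefSeq start on the gene's strand, was present in 30 of them (49.2%), beside 23.5% of 8977 tested genes and 21.2% of all 27025 in the table. TTCCGG, on either strand in the 250 bases before the RefSeq start, was present in 41.0%, beside 26.1% of tested genes. TATAAA, searched on either strand of the same bases, was present in 8.20% beside 8.10%. The 2 motifs and the pyrimidine run can overlap. Of the genes with no overlap between dams at day 14, the pyrimidine start was present in 4 of 6 higher and 10 of 19 lower ones with a window. The base before that C was not checked, so it may lie inside a longer pyrimidine stretch. Windows from 30 bases before the RefSeq start to 20 past it follow, with the run from that C onward in capitals. In the Rpl14 and Rpl28 windows pyrimidines also stand directly before the capitals, in lower case. The first 3 belong to genes described above. Rpl27 and Rps12 differed in opposite directions at day 14 and have no such run beginning within 5 bases of the RefSeq start. The whole Rpl27 window lies upstream of the annotated gene start given above, so the start of that gene model was not searched. In the Rps12 window a pyrimidine stretch begins further into the gene and is in lower case.

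Rps27, chr3:90213629-90213678, minus strand: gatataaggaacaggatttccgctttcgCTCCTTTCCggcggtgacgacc

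Rpl14, chr9:120571487-120571536, plus strand: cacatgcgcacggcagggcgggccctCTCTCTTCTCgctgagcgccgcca

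Rpl28, chr7:4792935-4792984, plus strand: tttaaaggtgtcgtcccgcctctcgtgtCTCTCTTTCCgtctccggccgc

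Rpl27, chr11:101442215-101442264, plus strand: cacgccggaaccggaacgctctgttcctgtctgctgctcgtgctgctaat

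Rps12, chr10:23787190-23787239, minus strand: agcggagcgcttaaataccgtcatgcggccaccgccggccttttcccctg

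Between dams at days 24 and 42, 0 of 85 genes passed, and so did 0% of all tested genes. The interval at day 24 lay within a 1.5-fold change for only 42 of 85. At day 24 the genes with the smallest p were Rpl24 (−0.50 ± 0.20, adjusted p = 0.44), Rps27 (−0.44 ± 0.19, adjusted p = 0.46) and Rpl29 (−0.37 ± 0.18, adjusted p = 0.52). Rpl24, a late-joining large-subunit protein, stood at 11.5 and 8.08 scaled TPM with the B6 dam and at 5.08, 6.99 and 7.90 with the IgA-null dam, and was the only 1 of 85 without overlap (9.7% of all genes were lower in this way). The median over the 85 was −0.14, but it was 0.19 without replicate 1 and −0.47 without replicate 2 of the B6 dam, so its direction was set by which of these 2 libraries was kept. Replicates 1 and 2 of the B6 dam also differed in markers: adult enterocyte sums were 813 and 7236 scaled TPM, epithelial 1666 and 3059.9, stem 898 and 449, and cycling 110.1 and 72.4. The part of these markers in the result was not tested.

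At day 42 the log2 fold changes between dams varied least from gene to gene (SD 0.11, beside 0.31 at day 14 and 0.25 at day 24). The median standard error, 0.17, was the same as at day 14. The 3 genes with the smallest p were Rps10 (0.19 ± 0.15), Rps3a1 (0.23 ± 0.19) and Rpl11 (0.18 ± 0.16), all with an adjusted p of 1. The log2 fold change was positive for 80 of 85 with a median of 0.11, beside −0.00 over all tested genes. For 22 of 85 the libraries did not overlap, all higher with the IgA-null dam (4.56% of all genes did so). Here the dams share their date but not the letter that opens their descriptions. The interval of 71 of 85 genes lay within a 1.5-fold change. Replicate 1 of the B6 dam at day 42 stood apart in markers, with a Paneth sum of 11353 scaled TPM against 819 and 2031. Its adult enterocyte sum was 3256 against 382 and 966, and its enteroendocrine sum 364 against 769 and 1219. The part of these markers in the day-42 result was not tested.

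The difference between dams was not shown to vary with age for any member. The smallest p of that test belonged to Rpl28, with dam differences of −0.57, −0.24 and 0.13 at days 14, 24 and 42 (adjusted p = 0.36), followed by Rps18 (0.40) and Rps19 (0.41).

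With the B6 dam the age comparisons turned on the same 2 libraries of day 24. Their median log2 fold change over the 85 was −0.07 from day 14 to 24 and −0.05 from day 24 to 42. Without replicate 1 of day 24 these were −0.40 and 0.27, and without replicate 2 they were 0.25 and −0.37. From day 14 to 24, 24 of 85 passed as lower without replicate 1 (8.52% of all genes) and 0 in either direction without replicate 2 (6.31% of all genes). Left with 1 library, that group is assumed to vary like the others. From day 24 to 42 with this dam the smallest p belonged to the pseudogenes Rpl32l (0.73 ± 0.24, adjusted p = 0.58), Rps4l (−0.41 ± 0.19, adjusted p = 0.71) and Rps3a3 (−2.09 ± 1.01, adjusted p = 0.71).

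From day 24 to 42 with the IgA-null dam, more genes stood higher than in any other age comparison without passing. The libraries did not overlap for 28 of 85 that were higher (14.6% of all genes) and for 2 that were lower (16.9%), and the median was 0.21 beside 0.01 over all genes. The smallest p belonged to Rps4l, Rps27 and Rpl32l. Rps4l, a transcribed processed pseudogene with 80.1% identity to the coding sequence of Rps4x, stood at 42.7, 36.7 and 27.0 scaled TPM at day 24 and at 22.3, 24.0 and 22.5 at day 42 (−0.59 ± 0.17, adjusted p = 0.071). Rpl32l, with 97.2% identity to Rpl32, stood at 7.73, 9.45 and 13.0 and then at 17.5, 17.2 and 14.6 (0.68 ± 0.21, adjusted p = 0.088). Neither overlapped between these ages. With replicate 1 of the day-24 group left out no member passed, and with replicate 3 left out Rps4l did (limma adjusted p = 0.032). Without either library of the B6 dam at day 24, 6 of 85 passed here: Rpl32l, Rpl36a, Rps27, Rps29 and Rps3a1 were higher and Rps4l lower, where 10.1% and 10.2% of all genes passed in either direction. Those B6 libraries are in neither group compared here and enter only through the shared fit and scaling. Markers moved between these ages too. Adult enterocyte sums ran from 2442 to 4280.3 scaled TPM at day 24 and from 322 to 628 at day 42 (0 of 7 positive, median −2.65, 1 called lower). Of the enteroendocrine markers 6 of 8 and of the tuft markers 4 of 5 were called higher, where 1.44% of all genes were. All 5 stem and all 6 cycling markers were positive. Their part in the result was not tested.

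From day 14 to 24 with the IgA-null dam, 14 of 85 genes did not overlap, all lower at day 24 (18.3% of all genes did so), and 7 had an unadjusted p under 0.05 (33.2% of all genes). Rpl23a, which binds signal recognition particle at the exit tunnel, stood at 161, 159 and 159 scaled TPM at day 14 and at 144, 106 and 79.4 at day 24 (−0.57, adjusted p = 0.068). Without replicate 1 of day 24, 7 of 85 passed: Rpl7a, Rps27l and Rps3a2 were higher, and Rpl22, Rpl23a, Rpl27 and Rps23 lower (17.1% of all genes). Without either library of the B6 dam at day 24, 5 passed, all lower (10.2% of all genes were called lower).

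The reads of Rps3a1 and its processed copies were divided differently among libraries. Rps3a1 (chr3:86137940-86142702, minus strand) encodes the subunit, Rps3a3 (chr13:108670603-108671397, plus strand) lies within Pde4d and Rps3a2 is at chr14:88123017-88123808 (minus strand). Rps3a3 is identical to the Rps3a1 coding sequence at 786 of 795 bases (98.9%). Positions 214 to 363 of the 2 coding sequences show how little there is to tell them apart, with the 3 differing bases in capitals.

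Rps3a1: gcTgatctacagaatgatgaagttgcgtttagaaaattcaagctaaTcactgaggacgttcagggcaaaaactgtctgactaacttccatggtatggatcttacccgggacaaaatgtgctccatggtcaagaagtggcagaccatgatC

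Rps3a3: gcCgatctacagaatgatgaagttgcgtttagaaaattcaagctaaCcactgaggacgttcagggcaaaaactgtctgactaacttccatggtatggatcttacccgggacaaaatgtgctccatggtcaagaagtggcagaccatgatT

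Rps3a3 stood at 10.4, 10.7 and 104 scaled TPM with the B6 dam at day 14, at 108 and 70.1 at day 24 and at 73.4, 11.9 and 8.17 at day 42. With the IgA-null dam it stood at 10.5, 10.5 and 16.7, then 9.75, 27.4 and 70.6, and at day 42 between 8.53 and 12.4 apart from replicate 2, which was below the 16.7 seen at day 14. High and low libraries occurred within 3 of the 6 groups, and no comparison passed. Of the reads on Rps3a1, Rps3a2 and Rps3a3, the share on Rps3a3 was between 1.93% and 3.93% in 11 libraries, 7.57% in 1 and between 19.5% and 23.8% in 5. The 3 genes together took between 1.92% and 2.11% of all ribosomal protein reads in those 5 libraries and between 1.48% and 2.24% in the 11. Pde4d itself stayed between 1.34 and 2.68 scaled TPM in every library. The values of Rps3a1, Rps3a2 and Rps3a3 are thus uncertain one by one.

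Shared sequence touches nearly all of these genes. At least 1 stretch of 50 bases of the message recurs in another annotated gene for 79 of 80 coding members, and the median share of such stretches was 55.5%. The share was 98.6% for Rps27, 22.4% for Rps27l, 49.3% for Rpl14, 90.1% for Rps12, 64.1% for Rpl27 and 24.5% for Rpl22. Of 288 rows marked as ribosomal protein pseudogenes, 123 were tested, of which 10 were called lower at day 24 than at day 14 with the IgA-null dam (8.28% of all genes were). In the same fits 3 were called higher at day 42 than at day 24 with this dam (1.44% of all genes) and 1 higher with the IgA-null dam at day 14 (1.79% of all genes). With the B6 dam 1 was called lower from day 14 to 24 (5.91% of all genes).

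Genes that build or serve the ribosome were read from fixed lists in the same fits. Fau encodes a small-subunit protein as a fusion with a ubiquitin-like protein. Fau rose from day 14 to 24 with the IgA-null dam (log2 fold change 0.47 ± 0.13, adjusted p = 0.028) after scaling, while on deposited TPM its value was −1.02. Of 29 alternatives, 8 others lost the call, with an adjusted p of up to 0.45.

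Of 34 ribosome assembly genes, 2 were called higher with the IgA-null dam at day 14 and 0 lower, where 1.79% of all genes were called higher. Gar1, a subunit of the particles that place pseudouridine in ribosomal RNA, stood at 9.97, 8.53 and 11.4 scaled TPM with the B6 dam and at 25.3, 28.8 and 29.5 with the IgA-null dam (log2 fold change 1.40 ± 0.18, adjusted p = 0.0029). Fbl, the methyltransferase fibrillarin, stood at 10.5, 10.5 and 14.7 against 21.7, 29.5 and 27.9 (1.09 ± 0.23, adjusted p = 0.027). From day 14 to 24 with the IgA-null dam, 3 of 34 fell (8.28% of all genes), among them Gar1 (−1.60, adjusted p = 0.00013) and Fbl (−1.19, adjusted p = 0.0050). The Gar1 call held in both comparisons under all alternatives tried, while that of Fbl at day 14 was lost with 5 of the 6 libraries compared left out in turn. With the B6 dam, 2 of 34 rose from day 14 to 24 (7.93% of all genes), Bop1 (0.52, adjusted p = 0.049) and Eif6 (0.91, adjusted p = 0.041), calls that 19 and 20 of 29 alternatives lost.

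Of 24 translation factors, many of which share the pyrimidine start, 0 passed between dams at day 14 (2.93% of all genes), with a median log2 fold change of −0.21. Nap1l1, a histone chaperone with such a start, fell from day 14 to 24 under either dam (B6: −0.68, adjusted p = 0.018; IgA-null: −0.72, adjusted p = 0.0079), and no other factor of the list passed. Mitochondrial ribosomal proteins, which serve the separate ribosome of that organelle, were read in the same way. Of 77 tested, 10 rose and 0 fell from day 14 to 24 with the B6 dam, where 7.93% of all genes rose. The log2 fold change was positive for 72 of the 77 there, with a median of 0.24 beside 0.01 over all genes. With the IgA-null dam 7 rose and 0 fell, where 8.35% of all genes rose, and 55 were positive with a median of 0.08. Mrpl43 rose with either dam (0.61, adjusted p = 0.0066, and 0.75, adjusted p = 0.0010). In the day-14 comparison of dams, 1 of the 77 passed in each direction. Mrpl43 had a log2 fold change of −0.53 (IgA-null against B6, adjusted p = 0.029) and Mrps28 had 0.61 (adjusted p = 0.035). These day-14 calls were lost under 8 of 29 alternatives for Mrpl43 and 11 for Mrps28. Of 18 growth control genes, 1 rose and 2 fell from day 14 to 24 with the B6 dam (7.93% of all genes rose and 5.91% fell), and 3 rose and 2 fell with the IgA-null dam (8.35% and 8.28%). From day 24 to 42 with the IgA-null dam 1 rose (1.44% of all genes). Ddit4, which restrains mTOR complex 1, fell from day 14 to 24 under either dam (B6: −1.03, adjusted p = 0.024; IgA-null: −1.31, adjusted p = 0.0040). Sesn2, another restraint on that complex, fell with the B6 dam (−0.80, adjusted p = 0.012), and Rheb, which activates the complex, fell with the IgA-null dam (−0.37, adjusted p = 0.011). In the comparisons of dams at days 24 and 42 and of days 24 and 42 with the B6 dam, 0 genes of these lists passed.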

How the data were processed

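RNA-seq libraries of 17 samples in 6 groups of dam and age were analysed. The authors deposited TPM values per gene, which sum to 1000000 in each library; per the submitters' processing notes, Bowtie2, Subread, DESeq2 and the mm10 build were used, in roles and versions not given in the sources used here. SMART-seq v4 cDNA and Nextera XT libraries were made from sorted cells thawed together, per the labels' protocols. Deposited TPM were divided by median-of-ratios size factors over 16088 genes above 0 in every library. Genes at 1 TPM or more in 2 libraries were tested with limma 3.58.1 (intensity trend) in R 4.3.3 on log2(scaled TPM + 1), all 6 groups in 1 fit, with Benjamini-Hochberg adjustment over 15066 genes and a threshold of 0.05. A log2 fold change on this scale understates the change of low genes. Whole reads were recovered from TPM and GENCODE M21 exon lengths: 93.6% of values were whole numbers, with a tolerance of 0.01 reads or a relative 1e-04, and 77 of the 85 members did so in every library. They served for depth and for limma-voom as an alternative.

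The members and gene lists were chosen with earlier results of these data known. Named were called members without overlap or, where none was called, the 3 with the smallest p, members with duties of their own, paralogs, the highest and lowest 3 levels and, for each list, the 2 lowest p-values. Genes named for the day-14 pattern, the main axis or a call under 1 alternative were chosen after their values were seen. The result of 1 gene of the lists is not reported here. The scripts were tested on simulated data. Alternatives were other scalings, pseudocounts 0.1 and 5, other filters, library weights, voom, only the groups compared, the sample number as a block and each library left out in turn.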

Additional observations from a re-analysis of the deposited data

How the results depend on the processing

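The counts of 0 among 85 genes between dams at days 24 and 42 and from day 24 to 42 with the B6 dam held under every alternative. At day 14 between dams, the count of 0 became 1 on deposited TPM (8.68% of all genes called), 1 with size factors from the 85 genes alone (1.81%), 2 with TPM of 5 or more in 2 libraries (492 genes called in all), 2 with limma-voom on recovered reads (3.21%), 6 with only the groups compared (4.76%) and 34 with library weights (29.2%). From day 14 to 24 with the B6 dam, the count of 1 became 0 on deposited TPM (8.61%), without Gm23935 and mitochondrial genes (12.3%), with no filter (1651 genes), with library weights (4.49%) and with only the groups compared (0.863%). With the IgA-null dam it became 83 on deposited TPM (83.8%), 2 with size factors from the 85 genes (8.18%), 4 without Gm23935 and mitochondrial genes (18%), 0 with pseudocount 5 (2331 genes), 0 with no filter (1910 genes) and 12 with library weights (23.5%). From day 24 to 42 with that dam, the count of 0 became 70 on deposited TPM (49.3%), 8 without Gm23935 and mitochondrial genes (12.7%) and 2 with library weights (8.12%). The test of dam by age went from 0 to 7 with library weights (586 genes), and cannot be fitted on only the groups compared. The cause was not tested.

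Leaving out each library in turn gave 0 to 9 genes between dams at day 14, 0 to 24 from day 14 to 24 with the B6 dam, 0 to 7 with the IgA-null dam and 0 to 6 from day 24 to 42 with the IgA-null dam. It gave 0 in the other comparisons. On deposited TPM the number of positive members went from 25 to 71 of 85 between dams at day 14, from 34 to 0 from day 14 to 24 with the IgA-null dam and from 25 to 80 from day 24 to 42 with the B6 dam. Among the genes the rule named, the sign turned for Rps4l from day 24 to 42 with the IgA-null dam (0.25) and, from day 14 to 24 with that dam, for Fau (−1.02), Mrpl40 (−0.69) and Mrpl43 (−0.63).

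Sample numbers did not pair the samples: over 40 same-numbered pairs the median correlation of deviations was −0.02, and 9 pairs exceeded 0.1. With the number as a replicate block, the count from day 14 to 24 went from 1 to 0 with either dam, and 0 passed in every other comparison. Depth is known only through the recovered reads, and 2 libraries of the B6 dam at day 24 set the direction of its age comparisons.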
